A study of Mus musculus with 6 samples.

Results

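The ribosomal protein genes measured here comprised 142 genes of the 17097 genes represented on the arrays, of which 69 encode proteins of the cytosolic ribosome or their close paralogs and 73 encode proteins of the mitochondrial ribosome. Members were chosen by gene symbol alone, through the cytosolic prefixes Rpl, Rps, Rplp and *Rpsa* and the mitochondrial prefixes Mrpl and Mrps followed by a number. Each gene was represented by its brightest probe set, by the mean over the 6 arrays, among probe sets annotated to a single gene. No measured difference between the groups entered this rule, although earlier results of these data were known when the members were chosen.

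The arrays compared full epithelial cancer cells, which were α6-integrin+CD45-EpCAM+ cells sorted from 3 independent well-differentiated squamous cell carcinomas (WD-SCCs), with EpCAM+ plastic cancer cells, sorted by the same markers from 3 independent moderately or poorly differentiated carcinomas (MD/PD-SCCs). The tumors were mouse cutaneous carcinomas, grown as grafts in mice and derived from spontaneous or DMBA/TPA-induced lesions of K14-HPV16 Tg/+ mice, in which a keratin 14 promoter drives the viral transgene in basal keratinocytes. Both groups therefore share the transgene, the sort gate, the depletion of CD31+ cells and the amplification of a small amount of total RNA before hybridization. The lesion of origin, the treatment of the donor mouse and the graft passage of each array are not given in the labels, and the age of the mice is not given for single arrays. The comparison asks how epithelial cancer cells of the more advanced tumors, which the study describes as able to turn mesenchymal, differ from those of WD-SCCs.

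A cytosolic ribosome is built from a small 40S subunit, which reads the mRNA, and a large 60S subunit, which joins amino acids. Its proteins are among the most abundantly transcribed gene products of growing cells, and their mRNAs share a terminal oligopyrimidine tract through which mTORC1 controls their translation. Mitochondria hold a separate ribosome, with a 28S small and a 39S large subunit, whose proteins are encoded in the nucleus, made in the cytosol and imported, and which makes the core subunits of oxidative phosphorylation from mitochondrial DNA. The mammalian mitochondrial ribosome carries counterparts of bacterial ribosomal proteins together with proteins that bacteria lack.

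Values are log2 signals normalized by robust multi-array average (RMA), and a difference of 1 is a 2-fold difference. The array medians over all genes lay between 5.37 and 5.46. The background level of 5.73 was the 95th percentile of 23 probe sets that match no mouse transcript, whose median was 3.37. Of 17097 genes, 9362 lay at or below it, so that a gene below this level may still be expressed. The sort marker *Epcam* lay between 10.5 and 11.2, and *Ptprc*, which encodes CD45, lay between 2.90 and 3.00. None of 20 leukocyte, 18 fibroblast and 14 keratinocyte marker genes changed in limma's moderated test, with p-values adjusted across all probe sets by the Benjamini-Hochberg method, and 1 of 16 endothelial markers fell (*Egfl7*, which was below the background level). At an unadjusted p under 0.05, 6 keratinocyte, 3 leukocyte, 2 fibroblast and 3 endothelial markers were lower, and 1 keratinocyte and 2 fibroblast markers were higher. The lower shares were 42.9%, 15%, 11.1% and 18.8% of these lists in that order, against 9.01% of all genes. The higher shares were 7.14% of the keratinocyte and 11.1% of the fibroblast markers, against 14.9% of all genes. Of the listed markers, 15 leukocyte, 13 fibroblast and 16 endothelial ones were at or below the background level. On the log2 scale the summed signal of the keratinocyte markers ran from 14.88 to 14.92 for full epithelial cells and from 14.72 to 14.80 for EpCAM+ plastic cells, that of the leukocyte markers from 10.78 to 11.35 and from 10.22 to 10.78, that of the fibroblast markers from 10.77 to 10.89 and from 10.80 to 11.21, and that of the endothelial markers from 8.63 to 8.80 and from 8.46 to 8.65. The part of these lists in the differences below was not tested.

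Nearly all genes of the cytosolic ribosome stayed short of the threshold, while 10 genes of the mitochondrial ribosome passed it. Among the 69 cytosolic members 1 rose and 0 fell in EpCAM+ plastic cells at an adjusted p under 0.05 (limma), 2 were higher and 0 were lower at the unadjusted level of 0.05, and their median log2 fold change was −0.01. Among the 73 mitochondrial members 9 rose and 1 fell, and their median log2 fold change was 0.26. Over all 17097 genes 5.3% rose and 1.91% fell, with a median log2 fold change of −0.02. Among the 4806 genes whose level lay between the 10th and 90th percentile of the mitochondrial levels, 11.4% rose and the median was 0.13, so that the share of mitochondrial members that rose, 12.3%, was close to that of genes of similar signal. A log2 fold change above 0 was found in 59 of 73 mitochondrial members (80.8%), in 62.2% of the genes of similar signal and in 45.7% of all genes. With 1 array left out, 3 to 6 mitochondrial members rose, with 3 without full epithelial replicate 1 or 3 or EpCAM+ plastic replicate 1 or 3 and 4 without full epithelial replicate 2. Repeating the quantile normalization on the deposited values lowered the number that rose from 9 to 5 and the mitochondrial median from 0.26 to 0.15, and it turned the count of all genes from 906 that rose and 326 that fell to 626 and 413.

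**Figure D1:**
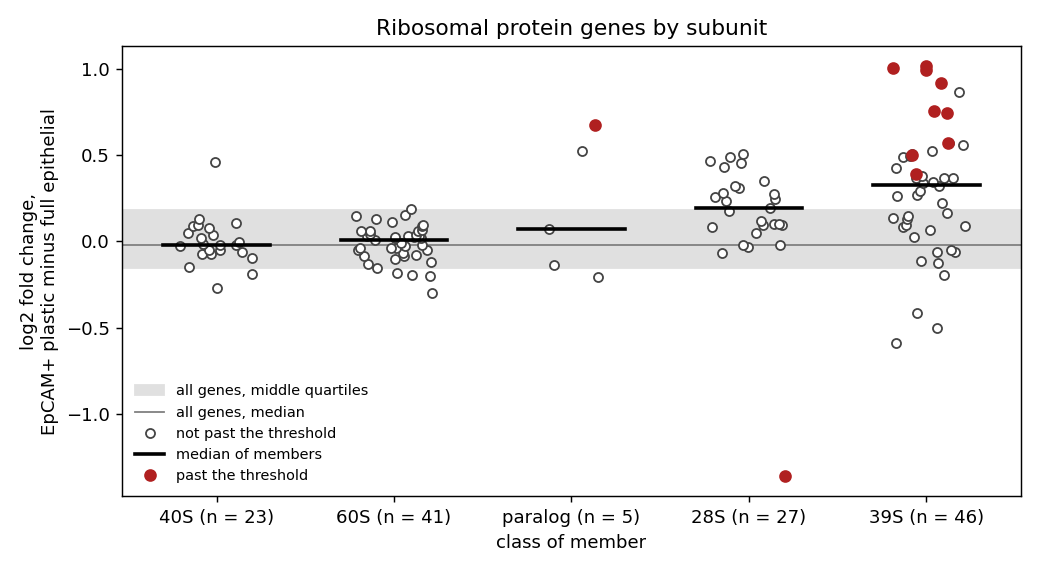
Log2 fold change of each ribosomal protein gene (EpCAM+ plastic minus full epithelial, 3 arrays each), by subunit. Open points did not pass the threshold, filled points passed it, black bars are medians of the members, and the grey band and line give the middle quartiles and the median of all 17097 genes. The 9 members that rose among the mitochondrial genes all lie in the 39S column, and the 40S and 60S columns hold no filled point.

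Signals of the cytosolic members were near the top of the range of the arrays. Array signals depend on the probes as well as on the mRNA, so that they rank probe sets and not transcripts. The median level of the cytosolic members over the 6 arrays was 11.24, at the 98.9th percentile of all genes, and 61 of 69 members had a level above 9. *Rps2*, a 40S protein, was the brightest at 12.7, while the highest value on any array was 13.06. The 8 members at a level of 9 or less were the 5 paralogs, whose symbols end in l or l1, with *Rpl14*, *Rpl36a* and *Rps15a*. The mitochondrial members had a median level of 7.29, at the 75.5th percentile, and 69 of 73 lay above the background level.

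Proteins of the 40S subunit (23 members) had a median log2 fold change of −0.02, with 0 genes past the threshold and 1 at an unadjusted p under 0.05. Those of the 60S subunit and its stalk (41 members) had a median of 0.01, with 0 past the threshold and 0 at an unadjusted p under 0.05. Over all genes 14.9% were higher and 9.01% lower at that unadjusted level. The 95% interval of the difference lay between −0.5 and 0.5 for 60 of the 69 cytosolic members, an interval of the array signal. These signals lay near the top of the range of the arrays, where a difference in mRNA can be compressed, so that the interval does not bound the difference in mRNA. The median standard error of a cytosolic member was 0.11, against 0.13 for all genes.

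The lowest log2 fold changes among cytosolic members belonged to *Rpl22*, *Rps19*, *Rpl39l*, *Rpl14* and *Rpl13*, and none of them passed the threshold. *Rps19*, a 40S protein whose human counterpart is mutated in Diamond-Blackfan anaemia, read 9.42, 9.36 and 9.43 on the full epithelial against 9.38, 8.93 and 9.09 on the EpCAM+ plastic arrays. The groups overlapped, since EpCAM+ plastic replicate 1 lay above full epithelial replicate 2, and the log2 fold change was −0.27 (SE 0.13, adjusted p = 0.292). *Rpl13*, of the 60S subunit, read 9.64, 9.95 and 9.66 against 9.67, 9.22 and 9.78, with a log2 fold change of −0.20 (SE 0.17, adjusted p = 0.583). Only EpCAM+ plastic replicate 2 was below the lowest full epithelial array for *Rpl13*. *Rpl14*, also of the 60S subunit, read 6.42, 6.28 and 5.65 against 5.93, 5.83 and 5.99, with a log2 fold change of −0.20 (SE 0.20, adjusted p = 0.632).

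At the other end, *Rpl37a* and *Rpl31*, both of the 60S subunit, had log2 fold changes of 0.19 (SE 0.10, adjusted p = 0.334) and 0.15 (SE 0.09, adjusted p = 0.388). *Rpl31* read 11.92, 11.99 and 11.84 in full epithelial and 12.08, 12.01 and 12.13 in EpCAM+ plastic cells, a separation of the groups by a narrow margin. Probe sets with the suffix a, s or x in their names can match several transcripts, of the same gene or of others. With all of these left out, *Rpl31* was represented by a probe set at 3.74 and its difference turned to −0.10. *Rps15a*, of the 40S subunit, had a log2 fold change of 0.46 (SE 0.13, adjusted p = 0.0904), from 4.72, 5.01 and 4.69 to 5.44, 5.21 and 5.16. All 6 of these values lay below the background level. *Rps20*, also of the 40S subunit, was level at 11.62, 11.78 and 11.82 against 11.81, 11.80 and 11.93, while a dimmer probe set of the same gene with values from 3.52 to 5.26 passed the threshold (log2 fold change 1.06, SE 0.22, adjusted p = 0.0401).

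The groups did not overlap for 5 cytosolic members that were higher and 4 that were lower in EpCAM+ plastic cells. These were *Rpl7l1*, *Rpl22l1*, *Rps15a*, *Rpl31* and *Rps6* on the higher side and *Rpl39l*, *Rpl29*, *Rplp1* and *Rps25* on the lower side. Over all genes, 15.4% were higher and 13.7% lower without overlap. *Rps6*, the 40S protein that S6 kinases phosphorylate, read 12.22, 12.27 and 12.29 against 12.40, 12.29 and 12.38, a difference of 0.10 (SE 0.08, adjusted p = 0.573).

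Cytosolic members varied together from array to array. EpCAM+ plastic replicate 2 was the lowest of its group for 64 of 69 members, and full epithelial replicate 1 was the lowest of its group for 49 of 69. The median cytosolic level came to 11.20, 11.34 and 11.23 for full epithelial against 11.30, 11.05 and 11.31 for EpCAM+ plastic cells. The spread between arrays of 1 group was therefore larger than the difference between the group medians, and without EpCAM+ plastic replicate 2 the median log2 fold change of the cytosolic members was 0.07. For the mitochondrial members the corresponding medians were 7.02, 7.19 and 7.22 against 7.48, 7.63 and 7.36, and the groups did not overlap. EpCAM+ plastic replicate 2, the lowest array of its group for the cytosolic genes, was the highest of its group for 37 of 73 mitochondrial genes.

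**Figure D2:**
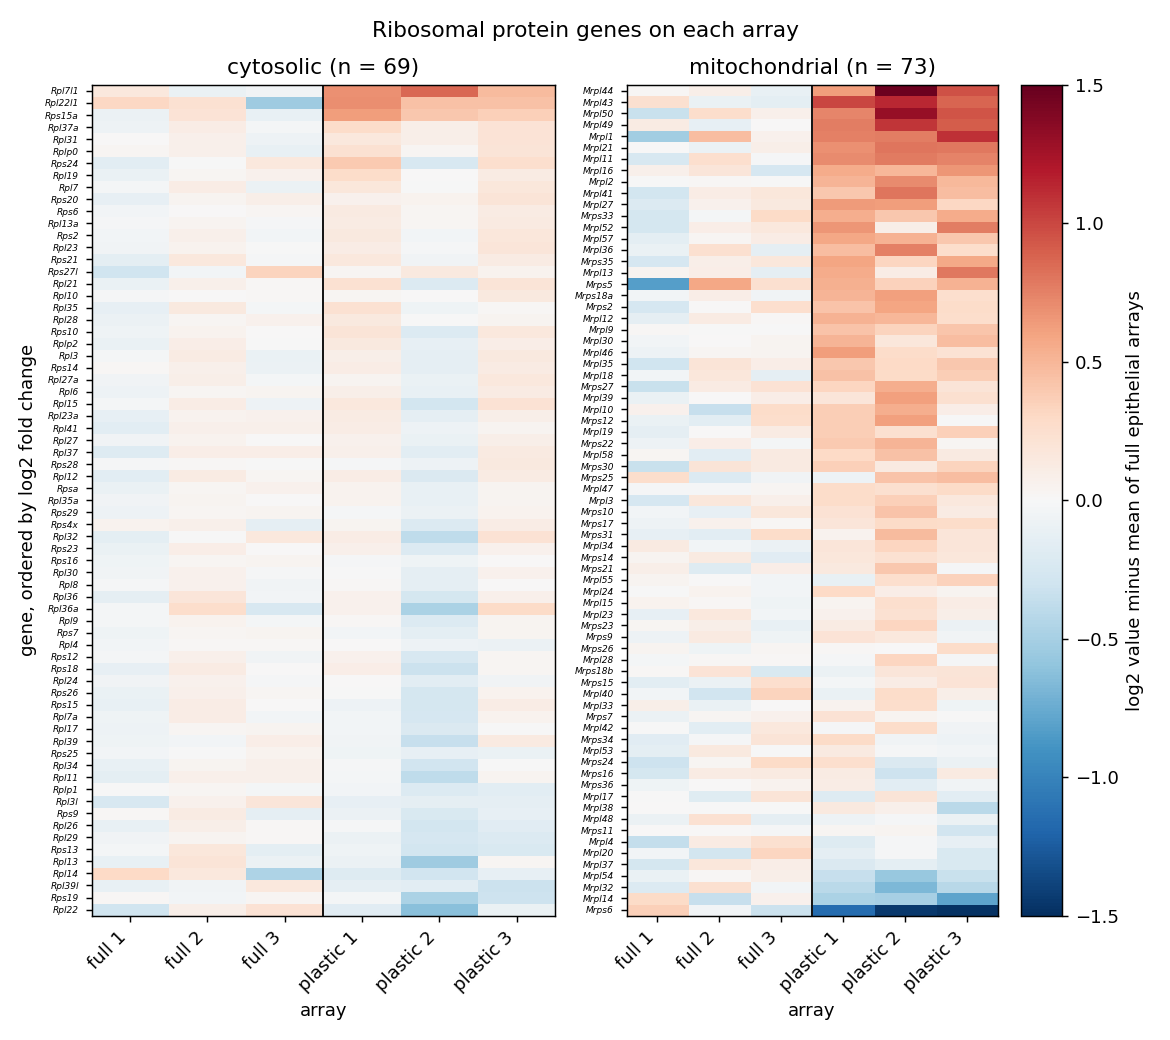
Log2 value of each member on each array minus the mean of its full epithelial arrays, with the 69 cytosolic members on the left and the 73 mitochondrial members on the right, ordered by log2 fold change. Red is higher and blue is lower, and the vertical line separates the groups. In the cytosolic panel the column of EpCAM+ plastic replicate 2 is lower than its neighbours for 64 of 69 genes, and in the mitochondrial panel most rows of the EpCAM+ plastic columns are red.

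Of the 5 paralogs 1 rose and 0 fell, which is also the count at an unadjusted p under 0.05. *Rpl7l1*, a paralog of *Rpl7* found in the nucleolus, was the only cytosolic member that rose. It read 7.14, 6.88 and 6.93 in full epithelial and 7.67, 7.84 and 7.46 in EpCAM+ plastic cells, with every EpCAM+ plastic array above every full epithelial array. Its log2 fold change was 0.67 (SE 0.13, adjusted p = 0.0348), and its dimmer probe sets had log2 fold changes of 0.32 (adjusted p = 0.150) and 0.72 (adjusted p = 0.168). Leaving out any 1 of the 6 arrays ended this call, at adjusted p values from 0.0506 without EpCAM+ plastic replicate 3 to 0.117 without EpCAM+ plastic replicate 1. The parent *Rpl7* read 10.99, 11.13 and 10.93 against 11.19, 11.01 and 11.19, and its difference was 0.11 (SE 0.10, adjusted p = 0.597).

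*Rpl22* and *Rpl22l1* had differences of opposite sign, neither past the threshold. *Rpl22*, an RNA-binding 60S protein that is known in the mouse to restrain its paralog, read 9.47, 9.85 and 9.98 in full epithelial and 9.59, 9.14 and 9.66 in EpCAM+ plastic cells (log2 fold change −0.30, SE 0.19, adjusted p = 0.428). *Rpl22l1* read 7.02, 6.94 and 6.18 against 7.41, 7.15 and 7.15 (log2 fold change 0.52, SE 0.23, adjusted p = 0.253). The values of *Rpl22* overlapped between the groups, while those of *Rpl22l1* did not, and full epithelial replicate 3 was at once the highest array for *Rpl22* and the lowest for *Rpl22l1*. A second probe set of *Rpl22*, at a level of 6.18, had a difference of 0.02.

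The remaining paralogs differed little. *Rpl39l*, which is enriched in the testis, lay below the background level at 4.30, 4.36 and 4.57 against 4.27, 4.24 and 4.09 (log2 fold change −0.21, SE 0.11, adjusted p = 0.342). Its parent *Rpl39* read 10.99, 11.02 and 11.16 against 11.01, 10.72 and 11.19 (log2 fold change −0.09, SE 0.14, adjusted p = 0.776), which turned to 0.04 without EpCAM+ plastic replicate 2. *Rpl3l*, known from striated muscle, was also below the background level, between 4.52 and 4.94 on all arrays, and had a log2 fold change of −0.13 (SE 0.12, adjusted p = 0.605). Its parent *Rpl3* lay between 11.6 and 11.9 on all arrays and had a log2 fold change of 0.04 (SE 0.11, adjusted p = 0.895). *Rps27l*, which p53 induces, read 7.85, 8.11 and 8.49 against 8.17, 8.30 and 8.20, with a log2 fold change of 0.07 (SE 0.16, adjusted p = 0.847) and its whole range set by the full epithelial arrays.

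**Figure D3:**
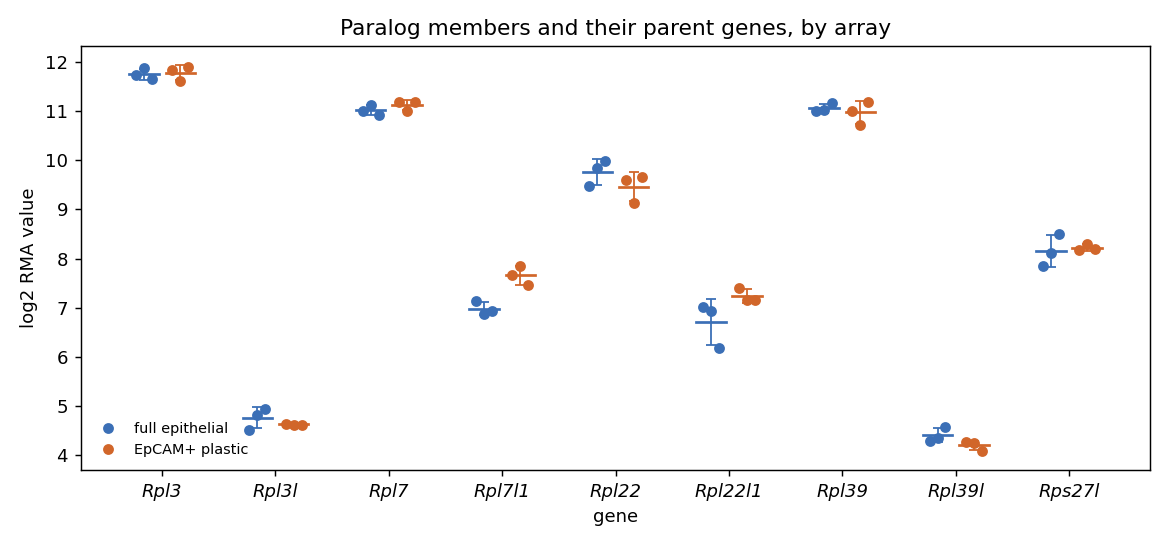
Log2 RMA values of the paralog members and their parent genes on each array, full epithelial in blue and EpCAM+ plastic in orange. Points are arrays, horizontal bars are group means and vertical bars are SD (n = 3 per group). For *Rpl7l1* and *Rpl22l1* every orange point lies above every blue point, while *Rpl39l* and *Rpl3l* lie below 5.

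Mitochondrial members that rose all belonged to the 39S subunit. Outside the symbol rule, the small subunit genes *Chchd1* and *Dap3* also rose, as described below, so that the rise was not confined to large subunit genes. Of 46 members of the 39S subunit 9 rose and 0 fell, with a median log2 fold change of 0.33. The count that rose among all mitochondrial members was 5 after repeated quantile normalization and 3 to 6 with 1 array left out. Of 27 members of the 28S subunit 0 rose and 1 fell, with a median of 0.19. The shares that rose were 19.6% and 0%, against 5.3% of all genes and 11.4% of the genes of similar signal, of which 2.91% fell. At an unadjusted p under 0.05, 25 members of the 39S subunit were higher and 3 lower, and 5 members of the 28S subunit were higher and 1 lower. The higher shares were 54.3% and 18.5%, against 14.9% of all genes and 29.1% of the genes of similar signal. A difference between the subunits themselves was not tested. The groups did not overlap for 31 members that were higher, 25 of them of the 39S subunit, and for 4 that were lower. These were 42.5% and 5.48% of the mitochondrial members, against 15.4% and 13.7% of all genes and, for the higher side, 28.4% of the genes of similar signal.

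*Mrpl43*, a 39S protein without a bacterial counterpart, read 8.02, 7.68 and 7.64 in full epithelial and 8.78, 8.91 and 8.65 in EpCAM+ plastic cells. All 3 EpCAM+ plastic arrays lay above all 3 full epithelial arrays, and the log2 fold change was 1.01 (SE 0.13, adjusted p = 0.0130). Without EpCAM+ plastic replicate 1 the adjusted p was 0.0577. *Mrpl49*, another 39S protein without a bacterial counterpart, read 6.37, 6.13 and 6.25 against 7.02, 7.32 and 7.15 (log2 fold change 0.92, SE 0.12, adjusted p = 0.0116). The groups were well apart, and the call held with each of the 6 arrays left out in turn. A second probe set of *Mrpl49*, almost as bright at 6.69, had a log2 fold change of 0.01 (adjusted p = 0.967), so that the probe sets of this gene disagree.

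*Mrpl44*, a protein with a ribonuclease III-like fold, read 5.43, 5.51 and 5.31 against 6.04, 6.88 and 6.37, with a log2 fold change of 1.02 (SE 0.21, adjusted p = 0.0410). All 3 full epithelial values lay below the background level of 5.73, so that the size of the difference is not settled. Against that level, a high percentile of the background probe sets and not a firm floor, the EpCAM+ plastic mean of 6.43 was 1.62-fold higher. Its EpCAM+ plastic arrays were farther apart than its full epithelial arrays, with replicate 2 highest. Its second probe set, at 5.84, had a log2 fold change of 0.31 (adjusted p = 0.211). The call was lost without full epithelial replicate 1, 2 or 3 (adjusted p = 0.111, 0.0869 and 0.114) and without EpCAM+ plastic replicate 3 (adjusted p = 0.106). *Mrpl50*, also without a bacterial counterpart, read 6.37, 6.96 and 6.78 against 7.44, 8.01 and 7.65, with a log2 fold change of 1.00 (SE 0.20, adjusted p = 0.0394). Both of its probe sets passed the threshold, the dimmer one with a log2 fold change of 1.07 (adjusted p = 0.0305), although the call of the brighter one was lost with any 1 array left out (adjusted p from 0.0536 to 0.104).

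**Figure D4:**
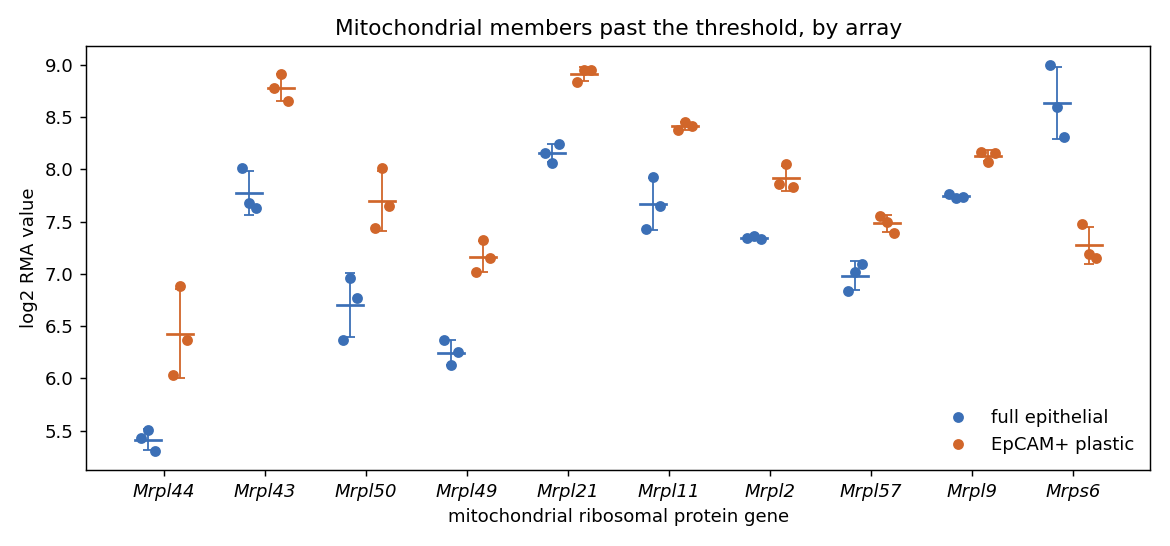
Log2 RMA values of the 10 mitochondrial members past the threshold on each array, full epithelial in blue and EpCAM+ plastic in orange, ordered by log2 fold change. Points are arrays, horizontal bars are group means and vertical bars are SD (n = 3 per group). In *Mrps6*, at the right, the order of the groups is opposite to that of the other 9 genes.

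*Mrpl21*, a counterpart of a bacterial large subunit protein, read 8.16, 8.07 and 8.25 against 8.84, 8.96 and 8.95 (log2 fold change 0.76, SE 0.09, adjusted p = 0.0109) and kept its call with each array left out in turn. Its other probe set, at 6.78 and without the suffix a, s or x, had a log2 fold change of −0.21 (adjusted p = 0.306), opposite in sign. The brighter one carries the suffix a. *Mrpl11*, which lies at the base of the large subunit stalk, read 7.43, 7.93 and 7.65 against 8.38, 8.45 and 8.42 (log2 fold change 0.75, SE 0.14, adjusted p = 0.0293). Of its 3 dimmer probe sets 1 also passed the threshold, with 0.69 (adjusted p = 0.0296), 1 had 0.47 (adjusted p = 0.0746) and the dimmest, below the background level, had 0.06. The brightest one kept its call only without full epithelial replicate 2, with adjusted p values of 0.0579 to 0.0947 without any other array.

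*Mrpl2* read 7.34, 7.36 and 7.34 against 7.86, 8.06 and 7.83, with a log2 fold change of 0.57 (SE 0.09, adjusted p = 0.0237). Its full epithelial arrays were nearly equal, and the call was kept only without EpCAM+ plastic replicate 2 (adjusted p from 0.0555 to 0.0764 without any other array). *Mrpl57* read 6.83, 7.02 and 7.10 against 7.56, 7.50 and 7.39 (log2 fold change 0.50, SE 0.11, adjusted p = 0.0436), and *Mrpl9* read 7.76, 7.73 and 7.73 against 8.17, 8.07 and 8.16 (log2 fold change 0.39, SE 0.08, adjusted p = 0.0426). Both were separated without overlap, and both calls were lost with any 1 array left out, at adjusted p values of 0.0675 to 0.145 for *Mrpl57* and 0.0640 to 0.144 for *Mrpl9*. A second probe set of *Mrpl9*, at 7.52, had a similar log2 fold change of 0.41 (adjusted p = 0.158).

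*Mrps6* was the only ribosomal protein gene that fell. This counterpart of a bacterial small subunit protein read 8.998, 8.60 and 8.31 in full epithelial and 7.48, 7.19 and 7.15 in EpCAM+ plastic cells, with a gap of 0.83 between the groups. Its log2 fold change was −1.36 (SE 0.19, adjusted p = 0.0142), and without EpCAM+ plastic replicate 3 the adjusted p was 0.0503. The gene shares its locus with *Slc5a3*, which encodes a myo-inositol transporter, and 3 further probe sets annotated to both genes were left out of the member choice. They had log2 fold changes of −1.54 (adjusted p = 0.0713), −1.30 (adjusted p = 0.0352) and −1.01 (adjusted p = 0.0135). A probe set annotated to *Slc5a3* alone read 7.91, 7.08 and 6.71 against 6.39, 5.82 and 5.81 (log2 fold change −1.23, SE 0.32, adjusted p = 0.0762). All 5 probe sets of the locus were thus lower in EpCAM+ plastic cells without overlap, and signal from the 2 overlapping genes cannot be told apart here.

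Promoter sequences of the members were set beside these results because most mitochondrial members had a difference of the same sign. A window of 300 bases, 250 before and 50 after the transcription start (RefSeq, GRCm38.p6), was given for 120 of the 142 members. The ETS motif CCGGAAG, read on both strands, was present in 23 of 55 cytosolic windows (41.8%) and in 22 of 65 mitochondrial windows (33.8%), against 13.8% of 13514 windows of all measured genes. The NRF1 motif, GCGC and TGCGC with any 1 base between them, was present in 9.09% of the cytosolic, 18.5% of the mitochondrial and 7.75% of all these windows, and the E-box CACGTG in 9.09%, 6.15% and 9.04%. Of the 9 mitochondrial members that rose, *Mrpl21*, *Mrpl43* and *Mrpl57* held the ETS motif, *Mrpl9*, *Mrpl44* and *Mrpl57* the NRF1 motif and *Mrpl2* the E-box. The 150 bases before the start are shown for a pair of the members that rose, *Mrpl44* (chr1:79775868-79776017, plus strand) and *Mrpl43* (chr19:45006443-45006592, minus strand), and for *Mrps6*, the member that fell (chr16:92058186-92058335, plus strand). Capitals mark the ETS and NRF1 motifs.
Mrpl44: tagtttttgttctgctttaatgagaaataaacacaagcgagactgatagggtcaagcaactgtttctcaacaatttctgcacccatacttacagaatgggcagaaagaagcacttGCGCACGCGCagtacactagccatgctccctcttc
Mrpl43: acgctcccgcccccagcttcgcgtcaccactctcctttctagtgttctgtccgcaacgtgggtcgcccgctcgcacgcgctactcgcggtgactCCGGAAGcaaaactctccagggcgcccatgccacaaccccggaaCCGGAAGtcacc
Mrps6: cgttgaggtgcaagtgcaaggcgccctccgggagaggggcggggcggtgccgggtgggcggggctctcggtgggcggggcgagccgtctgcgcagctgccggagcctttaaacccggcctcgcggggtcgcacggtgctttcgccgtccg
The *Mrpl44* stretch holds 1 NRF1 motif, the *Mrpl43* stretch holds 2 ETS motifs, and the *Mrps6* window holds neither these letters nor the E-box. A match of letters is a description of the window and does not show binding.

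A further 3 members of the 39S subunit were lower without overlap but did not pass the threshold. *Mrpl14* read 9.82, 9.19 and 9.60 against 9.06, 9.04 and 8.74 (log2 fold change −0.59, SE 0.18, adjusted p = 0.119), *Mrpl32*, whose protein is matured by the mitochondrial m-AAA protease, read 6.82, 7.26 and 6.98 against 6.61, 6.34 and 6.60 (log2 fold change −0.50, SE 0.14, adjusted p = 0.0971), and *Mrpl54* read 6.66, 6.77 and 6.84 against 6.41, 6.19 and 6.42 (log2 fold change −0.42, SE 0.10, adjusted p = 0.0697). *Mrpl14* was among the brightest mitochondrial members and its second probe set had a log2 fold change of −0.29. *Mrpl37* followed with −0.20 (SE 0.13, adjusted p = 0.454). Among members that did not pass, *Mrpl1*, which forms a mobile stalk of the large subunit, had the highest log2 fold change, 0.87 (SE 0.25, adjusted p = 0.0986), and full epithelial replicate 1 was far below its group at 5.98 against 6.96 and 6.57. *Mrpl19* had a log2 fold change of 0.32 (adjusted p = 0.127) at its brightest probe set, while a dimmer one, at 4.79, passed the threshold with 0.77 (adjusted p = 0.0335) and another, at 4.99, had −0.47.

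Members that did not pass the threshold but were higher without overlap numbered 22, of which 16 belong to the 39S and 6 to the 28S subunit. With the members that passed included, 54.3% of the 39S and 22.2% of the 28S members were higher without overlap. The shares were 15.4% for all genes and 28.4% for the genes of similar signal, so that the 28S share was below the latter. The 39S genes had log2 fold changes from 0.23 for *Mrpl34* to 0.87 for *Mrpl1*. *Mrpl12*, which also binds the mitochondrial RNA polymerase, read 7.41, 7.66 and 7.55 in full epithelial against 8.06, 8.04 and 7.80 in EpCAM+ plastic cells (log2 fold change 0.43, SE 0.12, adjusted p = 0.0851). *Mrpl58*, a peptidyl-tRNA hydrolase that is built into the large subunit, read 7.25, 7.06 and 7.35 against 7.51, 7.66 and 7.36 (log2 fold change 0.29, SE 0.12, adjusted p = 0.235), and its groups were separated by a gap of 0.01. The 6 genes of the 28S subunit were *Mrps2*, *Mrps14*, *Mrps17*, *Mrps18a*, *Mrps33* and *Mrps35*, with log2 fold changes from 0.19 to 0.50. *Mrps33* had the highest difference of the 28S members, 0.50 (SE 0.15, adjusted p = 0.110), from 7.23, 7.47 and 7.79 to 8.05, 7.91 and 8.06. *Mrps5* had a difference of similar size, 0.47 (SE 0.34), and did not pass the threshold. Its full epithelial replicate 1 alone was low, at 5.53 against 6.94 and 6.60, and the groups overlapped.

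Of the 9 mitochondrial members that rose, 4 lie on chromosome 19. All 5 mitochondrial members of chromosome 19 (*Mrpl11*, *Mrpl16*, *Mrpl21*, *Mrpl43* and *Mrpl49*) were higher without overlap, and 4 of them rose, the exception being *Mrpl16* (log2 fold change 0.57, SE 0.13, adjusted p = 0.0562). *Mrpl16* passed the threshold under 3 alternatives, which were testing only probe sets above the background level, taking the mean of all probe sets of a gene and adjusting over 1 probe set per gene. Of all 568 genes measured on chromosome 19, 17.6% rose and the median log2 fold change was 0.11. Higher without overlap were 34.7% of these 568 genes, against 15.4% of all genes measured. Among the 24 genes flanking *Mrpl43*, 12 on either side, the median log2 fold change was 0.23 and 7 rose. Around *Mrpl11* and *Mrpl49* 6 and 4 of 24 rose, with medians of 0.14 and 0.18. *Mrpl21* had only 12 flanking genes, of which 2 rose, with a median of 0.40. Around *Mrpl50*, the member of chromosome 4 that rose, 6 of 24 neighbours rose with a median of 0.05. Of all 1028 genes measured on chromosome 4, 8.95% rose and the median log2 fold change was −0.01. This share was near the 8.84% of chromosome 3, whose genes were kept in the alternative below. Without the genes of chromosomes 4 and 19, which is an alternative chosen after seeing the data, 4 of 64 mitochondrial members rose (6.25%), against 4.61% of the 15501 genes off these chromosomes. The median of these 64 members was 0.25, close to the 0.26 of all 73. Copy number was not measured, and the part of chromosome 19 in the calls was not tested.

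Probe sets that match no transcript also differed between the groups by their base composition. Of the 23 such probe sets, each holding probes of 1 GC count from 3 to 25, those with 16 to 23 and with 25 G or C bases were lower in EpCAM+ plastic than in full epithelial arrays without overlap, by 0.18 for 16 to 0.58 for 25 on the log2 scale. The one with 24, whose mean over the arrays is the background level used above, was lower by 0.45 with overlap. Those with 3 to 14 differed by 0.08 or less. None passed the threshold. Probe sequences of the members were not used here, and the part of this shift in their values was not tested.

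Other genes of translation were described from lists drawn from general knowledge. Their counts stand against 5.3% of all genes that rose and 1.91% that fell. Among the genes of similar signal to the mitochondrial members 11.4% rose. At an unadjusted p under 0.05, 14.9% of all genes were higher and 9.01% lower. Among the genes of similar signal these shares were 29.1% and 10.8%. Of 6 further proteins of the mitochondrial ribosome with other names 2 rose, *Chchd1* (5.93, 6.11 and 6.46 against 7.25, 6.80 and 7.17, log2 fold change 0.91, adjusted p = 0.0354) and *Dap3* (7.90, 7.80 and 7.87 against 8.50, 8.22 and 8.32, log2 fold change 0.49, adjusted p = 0.0419). Both encode small subunit proteins, and the median of the 6 was 0.40. Of 28 mitochondrial translation and assembly factors 3 rose (10.7%), with a median of 0.18, namely *Gfm1*, an elongation factor (0.81, adjusted p = 0.0332), *Malsu1*, which binds the assembling large subunit (0.45, adjusted p = 0.0463), and *Fastkd2*, an RNA-binding protein (0.87, adjusted p = 0.0491). Unlabelled values in parentheses after a single gene name are log2 fold changes.

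Among 44 nucleolar factors of ribosome biogenesis 6 rose (13.6%) and 1 fell, with a median log2 fold change of 0.42. At an unadjusted p under 0.05, 24 were higher (54.5%) and 2 lower. Of the 44 factors, 6 lay at or below the background level. Among all genes above that level 26.8% were higher and 12.2% lower at this unadjusted p. The smallest p values belonged to *Nmd3*, an export adaptor of the 60S subunit (0.99, adjusted p = 0.0126), *Nop14* (0.93, adjusted p = 0.0144) and *Utp15* (1.04, adjusted p = 0.0149), both of the small subunit processome, while *Nop10*, of the H/ACA particles that guide pseudouridylation, fell by 0.54 (adjusted p = 0.0470). Of 42 initiation and elongation factors 3 rose (7.14%), *Eif3b* (0.60, adjusted p = 0.0290), the elongation factor 2 kinase *Eef2k* (0.65, adjusted p = 0.0377) and *Eif1b* (0.50, adjusted p = 0.0428), with a list median of 0.09. Of 18 genes listed under mTORC1 and oligopyrimidine tract control 3 rose (16.7%), *Larp4* (0.91, adjusted p = 0.0320), *Myc* (0.70, adjusted p = 0.0462) and *Rptor*, a subunit of mTORC1 (0.89, adjusted p = 0.0464). *Myc* was placed in this list although it encodes a transcription factor and no part of mTORC1. Of 18 ribosomal protein fusions, chaperones and import factors 2 rose (11.1%), *Grwd1*, a chaperone of *Rpl3* in human cells (1.15, adjusted p = 0.00755), and *Ipo9* (0.68, adjusted p = 0.0398). With 1 array left out the count that rose ranged from 0 to 10 for the nucleolar factors, from 1 to 2 for the fusions, chaperones and import factors, and between 0 and 2 for the other 4 lists.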

How the data were processed

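The 6 arrays comprised 3 of full epithelial and 3 of EpCAM+ plastic cells. The authors deposited log2 values made with RMA (its version was not given in the sources used here) for the 45141 probe sets of an Affymetrix mouse perfect-match array strip. Gene names came from GEO's platform annotation, which gives 1 gene for 28898 probe sets, several for 551 and none listed for 15692. All 142 member symbols matched RefSeq. Arrays give no read depth, and their number limits the precision.

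Groups were compared with limma 3.58.1 in R 4.3.3 (lmFit and eBayes, two-sided) over all probe sets, with Benjamini-Hochberg adjustment and a threshold of 0.05 on the adjusted p, without a fold minimum. Errors are moderated standard errors, and the fit was tested on simulated data. The text names members past the threshold, the 5 highest and lowest log2 fold changes of each class, paralogs with their parents, members with a dimmer probe set past the threshold and up to 3 genes of each list. Single members, list genes or probe sets outside this rule (such as *Rps2*, *Nop10*, *Slc5a3* and members named for overlap, level, chromosome or spread) were chosen after their values were seen. Members and lists were chosen with earlier results of these data known. Alternatives covered normalization, centring, dim probe sets, probe sets with the suffix a, s or x (left out together), moderation, adjustment, a fold minimum, single arrays, the replicate number as a block and chromosomes 4 and 19.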

Additional observations from a re-analysis of the deposited data

How the results depend on the processing

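The median log2 fold change over the alternatives ranged from −0.05 to 0.07 for the cytosolic and from 0.15 to 0.30 for the mitochondrial members. The number of cytosolic members that rose was 1, and it was 0 after repeated quantile normalization, trend and robust moderation, or a minimum absolute log2 fold change of 1, 0 with any 1 array left out (range 0 to 0), and 2 with the mean of all probe sets of a gene. The number of mitochondrial members that rose was 9. It was 5 after repeated quantile normalization, 2 with the fold minimum, 4 without the genes of chromosomes 4 and 19, and 3 to 6 with 1 array left out, with 3 without full epithelial replicate 1 or 3 or EpCAM+ plastic replicate 1 or 3. The number that fell was 1, with 2 after repeated quantile normalization and 0 to 1 with 1 array left out. The cause of these differences was not tested. A fold minimum can only remove calls, by its definition. Fits with 1 array left out have fewer residual degrees of freedom, and the part of this in the counts was not tested. Over all genes, 341 rose and 142 fell with the fold minimum, and 183 to 830 rose and 65 to 391 fell with 1 array left out. With the replicate number as a block, 0 cytosolic and 1 mitochondrial members and 154 of all genes rose and 68 of all genes fell. The tumors were independent within each group, and the labels give no pairs between the groups. The deviations of same-numbered arrays correlated at −0.19, −0.47 and −0.02, so the numbers were not taken as pairs. Arrays of different number correlated at up to 0.47 (full epithelial replicate 1 with EpCAM+ plastic replicate 2) and down to −0.39 (full epithelial replicate 1 with EpCAM+ plastic replicate 3). A shared origin of tumors across the groups was not tested.

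Signs turned for *Mrpl21* (−0.21) and *Rpl31* (−0.10) without probe sets of suffix a, s or x, and for *Rps27l* after repeated quantile normalization (−0.0014). They also turned with 1 array left out, for *Rpl3* without full epithelial replicate 3 (−0.01) or EpCAM+ plastic replicate 3 (range −0.021 to 0.12), for *Rpl39* without EpCAM+ plastic replicate 2 (range −0.20 to 0.040) and for *Rps27l* without full epithelial replicate 1 (range −0.077 to 0.24). Of 491 values of 32 named members under the alternatives, 410 kept their sign and side of the threshold, 72 kept the sign but not the call, and 2 gained a call (*Mrpl54* after repeated quantile normalization and *Rps20* with the mean of its probe sets). Outside these 32, *Mrpl16* gained a call under 3 alternatives and *Mrpl13* without EpCAM+ plastic replicate 2. With 3 arrays per group, a member that did not pass may still differ. Probe sets at the background level can understate a difference, which touches 8 members with every array of at least 1 group at or below it: *Rps15a*, *Rpl39l*, *Rpl3l*, *Mrpl15*, *Mrpl37*, *Mrpl44*, *Mrpl47* and *Mrps34*. Signals near the top of the range can do the same for the cytosolic members.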

Other observations

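Probe sets annotated to a ribosomal protein gene together with another gene, or to a relative outside the symbol rule, were not counted among the members. *Rps3a1*, a 40S protein gene, read 11.70, 11.82 and 11.69 in full epithelial and 11.84, 11.60 and 11.86 in EpCAM+ plastic cells, a log2 fold change of 0.03 (limma, SE 0.11, adjusted p = 0.911). The brightest probe set shared by *Rpl5* and *Dipk1a* had a log2 fold change of 0.14 (SE 0.11, adjusted p = 0.552), and that of *Rpl36al*, a paralog of *Rpl36a*, had −0.18 (SE 0.09, adjusted p = 0.301). The 4 bright probe sets shared by *Rpl14* and a pseudogene had log2 fold changes of −0.21 to −0.18, close to the −0.20 of the dim probe set that represented *Rpl14*.

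*Mrps36* was counted by its symbol, although its protein is now known as a subunit of the 2-oxoglutarate dehydrogenase complex. It had a log2 fold change of −0.03 (SE 0.10, adjusted p = 0.889).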
